A study of Danio rerio with 4 samples.

Results

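The miRNA profile of zebrafish larvae exposed to 500 μg/L BDE47 was set directly against that of larvae exposed to 5 μg/L BDE47, so that the concentration of BDE47 was the only stated difference. These are 2 of the 4 small RNA libraries of the series, and 234 of the 245 listed zebrafish miRNAs were compared, namely those whose normalized counts averaged 10 or more over the 4 libraries. The other libraries were a vehicle control with 0.1% DMSO and a blank control, and their values are given for orientation only. Each library came from pooled whole larvae of the wild-type Tuebingen strain at 6 dpf, and both BDE47 groups also received 0.1% DMSO from the gastrula stage onward. Whether the blank control contained DMSO is not given by its label. Each condition had 1 library, so no sequencing difference has a replicate check, no test between conditions was possible, and every value describes these libraries. RT-PCR by the study on replicate samples was not analysed here.

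BDE47 is a brominated flame retardant that dissolves in fat and accumulates in animals. miRNAs are short RNAs that guide Argonaute proteins to partly complementary mRNAs and lower their translation or stability. They are cut from hairpin precursors, either arm of which (5p or 3p) can give a mature miRNA, and neighbouring miRNA genes are often transcribed together. Many are confined to 1 tissue, so a whole-larva profile mixes signals of muscle, gut, liver, blood, skin and nervous system. In such bulk RNA, fewer cells of a type and less miRNA per cell cannot be told apart.

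The deposited values were normalized counts, and the read numbers given here were inferred from them, since all values of a library were whole multiples of 1 step. By this inference the listed miRNAs held 9295259 reads in the 500 μg/L library and 10357704 in the 5 μg/L library, with size factors of 0.947 at 500 μg/L and 1.02 at 5 μg/L. Markers of muscle, liver, intestine, brain, skin, red blood cells, pancreas, eye and cartilage were all present. Of their 30 entries, 0 were at 0 in either library, and they ran between 12.7 and 1789781 normalized counts. Each difference is the log2 of the 500 μg/L value over the 5 μg/L value, with 1 added to both. Its 95% interval was obtained by the exact Clopper-Pearson method from the inferred reads behind both values. Such an interval describes counting error alone. It leaves out PCR duplication, the spread between batches of larvae and any error in the scaling of the libraries. The lowest miRNA inside the filter was miR-2185-3p, with a mean of 10.6 normalized counts, and the highest outside it was miR-2192, with 8.70.

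Most miRNAs had similar levels at both concentrations, and few stood apart, among them miR-735, the miR-146 paralogs and several miRNAs of liver and gut. Only 4 of 234 miRNAs (1.71%) differed more than 2-fold. miR-735 and miR-146a were higher at 500 μg/L (2 miRNAs, 0.855%), and miR-459-5p and miR-133b-5p were lower (2 miRNAs, 0.855%). At 1.5-fold, 21 miRNAs differed (8.97%), with 9 higher (3.85%) and 12 lower (5.13%). Scaled to the total of the listed values, the split was 9 higher and 8 lower. The median absolute log2 ratio was 0.16, 91.0% of the miRNAs stayed within 1.5-fold, and the 5th and 95th percentiles of the log2 ratio were -0.56 and 0.49. Between the vehicle and blank control libraries, which share no library with this comparison and contained no BDE47, 31 miRNAs (13.2%) differed by more than 1.5-fold, 26 of them higher in the vehicle control (11.1%) and 5 lower (2.14%). The median absolute log2 ratio there was 0.19. The BDE47 libraries therefore differed from each other at fewer miRNAs than the control libraries did at this threshold, and at about as many beyond 2-fold, where 3 (1.28%) separated the controls. That comparison depends on the control used, since the pairs with the vehicle control had the lowest shares within 1.5-fold. These were 86.8% for vehicle over blank, 84.6% for 5 μg/L over vehicle and 79.1% for 500 μg/L over vehicle. Against the blank control, 98.3% stayed within 1.5-fold at 5 μg/L and 88.9% at 500 μg/L. No test of these counts and shares was possible with 1 library per condition.

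Counting error did not limit most of these values. The counting interval excluded no change at 158 of 234 miRNAs (67.5%), with 81 higher (34.6%) and 77 lower (32.9%) at 500 μg/L. This held for 70 of the 78 most abundant miRNAs and for 32 of the 78 least abundant ones. These counts were made under the authors' scaling alone, which the intervals take as exact. Scaling to the total of the listed values shifted the median log2 ratio by 0.044, beside a median half-width of the intervals of 0.075. The median absolute log2 ratio was 0.10 among the 78 most abundant miRNAs, 0.13 among the 78 of intermediate level and 0.20 among the 78 least abundant. Of the 21 miRNAs beyond 1.5-fold, 19 had an interval that excluded no change. The exceptions were miR-202-5p, with 24 reads at 500 μg/L and 15 at 5 μg/L, and miR-2185-3p, with 6 and 11 reads in the same order.

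**Figure D1:**
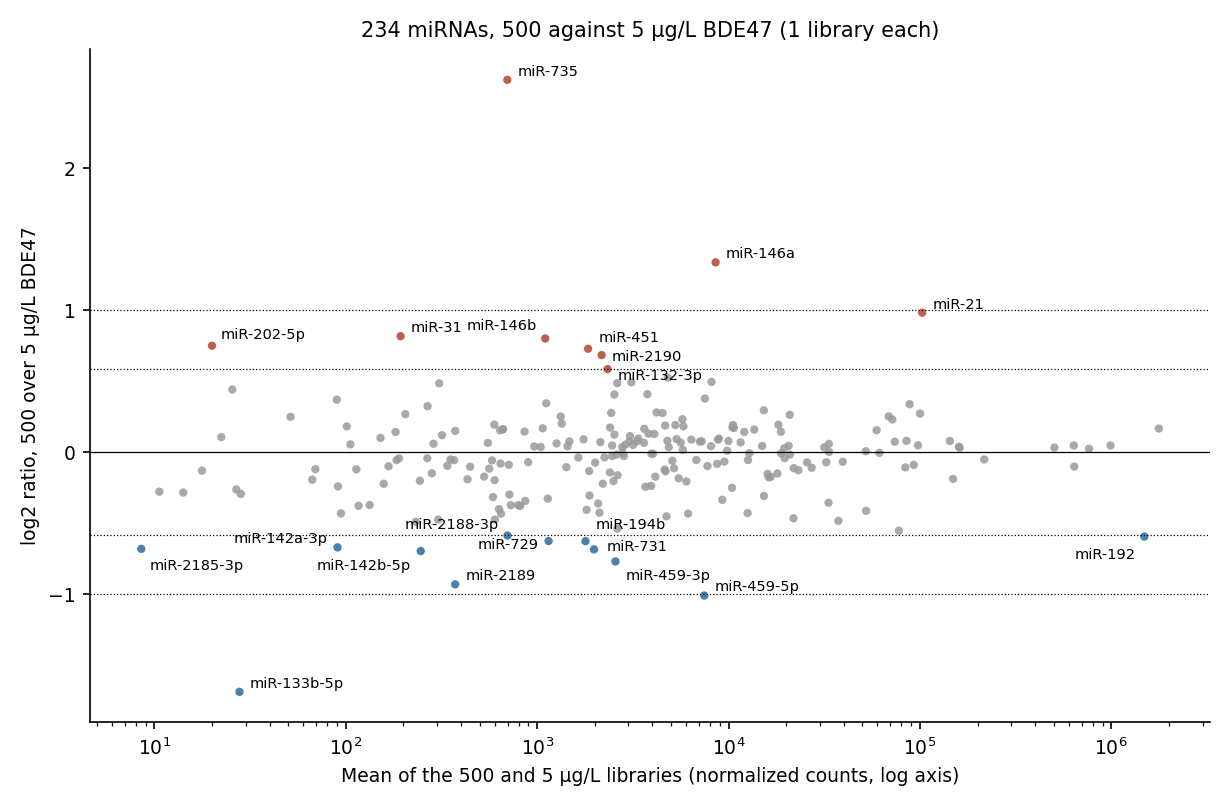
Log2 ratio of 500 over 5 μg/L BDE47 (vertical axis) against the mean normalized count of both libraries (horizontal log axis) for 234 miRNAs, 1 point each. Red points lie more than 1.5-fold higher at 500 μg/L and blue points more than 1.5-fold lower, dotted lines mark 1.5-fold and 2-fold, and miR-735 stands farthest from the rest at 2.62.

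The widest difference was that of miR-735. The 500 μg/L library held 1202 normalized counts from 1139 reads, and the 5 μg/L library 194 from 199 reads. The vehicle and blank control libraries held 125 and 148. The 500 μg/L library thus lay far above the other 3, which ranged between 125 and 194. The log2 ratio was 2.62 (95% counting interval 2.41 to 2.85), a ratio of 6.18 (5.32 to 7.23). miR-735 remained a minor RNA, with 0.0123% of the listed reads at 500 μg/L and 0.00192% at 5 μg/L, and ranks of 159 and 204 among the 234 miRNAs. In RefSeq this name is filed under the gene rny2, whose symbol belongs to the Y RNAs, small noncoding RNAs bound by the Ro protein. The class of RNA behind these reads was not tested.

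The paralogs miR-146a and miR-146b were both higher at 500 μg/L. In mammals, miR-146 is induced by innate immune signalling and dampens it. miR-146a had 12267 normalized counts at 500 μg/L and 4854 at 5 μg/L, against 13344 in the vehicle and 7689 in the blank control. Its log2 ratio was 1.34 (1.29 to 1.39). miR-146b had 1401 normalized counts at 500 μg/L and 803 at 5 μg/L, against 1585 in the vehicle and 917 in the blank control, with a log2 ratio of 0.80 (0.68 to 0.93). For both paralogs, the 500 μg/L library lay between the control libraries and the 5 μg/L library was the lowest of the 4. The level at 500 μg/L was thus within the range of the controls, and that at 5 μg/L was outside it. miR-155, the remaining entry of the inflammation list and a miRNA of activated lymphocytes and macrophages in mammals, was low in both libraries, with 83.4 and 98.7 normalized counts at 500 and 5 μg/L and a log2 ratio of -0.24 (-0.69 to 0.20). miR-146a and miR-146b are near-identical, and how their shared reads were assigned is not given in the sources used here.

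miR-31 had the same order of libraries as the miR-146 paralogs. It held 247 normalized counts at 500 μg/L and 140 at 5 μg/L, against 254 in the vehicle and 152 in the blank control. The log2 ratio was 0.82 (0.52 to 1.13), so the 500 μg/L library stood near the vehicle control and the 5 μg/L library near the blank control. In mammals, miR-31 is known from keratinocytes and other epithelia.

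miR-21, an abundant miRNA that is raised in many injured and inflamed tissues of mammals, was nearly 2-fold higher. It had 136432 normalized counts at 500 μg/L and 69026 at 5 μg/L, and 86059 and 93197 in the vehicle and blank controls. Here the 500 μg/L library was the highest of the 4 and the 5 μg/L library the lowest. The log2 ratio of 0.98 (0.97 to 1.00) was set by 129267 and 70665 reads. Scaled to the total of the listed values, it was 1.03 and so just past 2-fold.

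The other miRNAs more than 1.5-fold higher with an interval excluding no change were miR-451, miR-2190 and miR-132-3p. miR-451, which matures without Dicer and acts in red blood cell maturation in zebrafish, had 2302 normalized counts at 500 μg/L and 1388 at 5 μg/L, against 1451 in the vehicle and 1660 in the blank control (log2 ratio 0.73, interval 0.63 to 0.83). miR-2190 had 2678 and 1665 normalized counts at 500 and 5 μg/L, against 1612 with vehicle and 2229 in the blank control (log2 ratio 0.68, interval 0.60 to 0.77). Both were highest in the 500 μg/L library. miR-132-3p, of the neuronal activity list, passed 1.5-fold by little, at a ratio of 1.501, and came within it when 10 in place of 1 was added to both values.

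**Figure D2:**
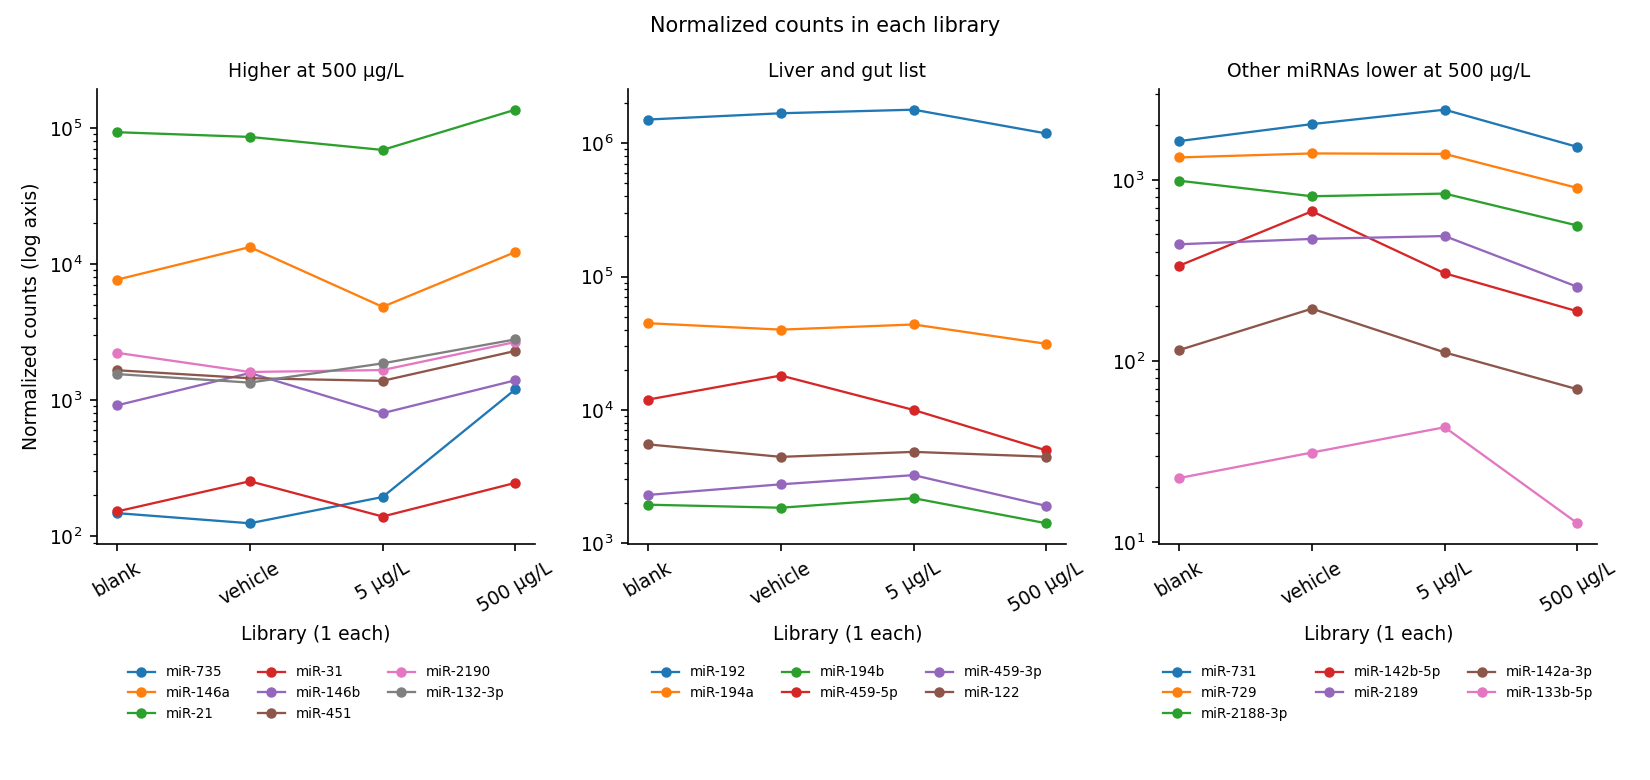
Normalized counts (log axis) of the named miRNAs in the blank control, vehicle control, 5 μg/L and 500 μg/L BDE47 libraries, 1 point per library, in panels for miRNAs higher at 500 μg/L, the liver and gut list, and other miRNAs lower at 500 μg/L. miR-735 lies between 125 and 194 in 3 libraries and at 1202 at 500 μg/L, whereas miR-146a is lowest at 5 μg/L with 4854.

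The miRNAs of liver and gut were lower at 500 μg/L as a group. All 6 entries of the list (miR-192, miR-194a, miR-194b, both arms of miR-459, and miR-122) were lower, against 51.3% of all 234 miRNAs. Of the 6, 4 were lower by more than 1.5-fold, against 5.13% of all miRNAs. The entries include arms, paralogs and neighbours, so they are not independent of each other. They are also part of the 234 miRNAs, and the list was chosen with earlier results of these data known, so these shares are a description only. The median log2 ratio of the list was -0.61, beside -0.0069 over all miRNAs. Summed over the list, the 500 μg/L library held 1230362 normalized counts and the 5 μg/L library 1853685, a ratio of 0.664. The same 6 entries had a median log2 ratio of 0.040 between the vehicle and blank controls, with 3 higher and 3 lower in the vehicle control. Of all miRNAs, 56% were higher there and 44% lower.

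miR-192, an intestinal and hepatic miRNA of vertebrates, carried most of that sum. It had 1186373 normalized counts at 500 μg/L and 1789781 at 5 μg/L, while the vehicle and blank controls held 1682191 and 1510011. The 500 μg/L library was the lowest of the 4 and the 5 μg/L library the highest. The log2 ratio was -0.59 (-0.60 to -0.59). miR-192 made up 12.1% of the listed reads at 500 μg/L (interval 12.07 to 12.11) and 17.7% at 5 μg/L (17.67 to 17.71), a difference of -5.60 percentage points. It was the most abundant miRNA at 5 μg/L and the second at 500 μg/L, where miR-181a-5p led.

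miR-194a neighbours miR-192 in the RefSeq annotation. It had 31285 normalized counts at 500 μg/L and 43697 at 5 μg/L, against 39980 and 44657 in the vehicle and blank controls, and a log2 ratio of -0.48 (-0.50 to -0.46). Its paralog miR-194b had 1407 at 500 μg/L and 2170 at 5 μg/L, against 1841 in the vehicle and 1940 in the blank control. The log2 ratio of miR-194b was -0.63 (-0.72 to -0.53). Both had their lowest level in the 500 μg/L library. Scaled to the total of the listed values, miR-192 and miR-194b were at -0.55 and -0.58 and so within 1.5-fold, which left 2 of the 6 entries beyond it.

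miR-459, found in the gut of fish, was lower in both arms. miR-459-5p had 4955 normalized counts at 500 μg/L and 9970 at 5 μg/L, against 18088 in the vehicle and 11933 in the blank control. Its log2 ratio of -1.01 (-1.06 to -0.96) barely passed 2-fold and was -0.96 when scaled to the total of the listed values. miR-459-3p had 1898 at 500 μg/L and 3233 at 5 μg/L, against 2759 and 2297 in the vehicle and blank controls, and a log2 ratio of -0.77 (-0.85 to -0.69). Both arms were lowest at 500 μg/L, but the 5 μg/L library was below both controls for the 5p arm and above both for the 3p arm.

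miR-122, the main miRNA of hepatocytes, differed least within the list. It had 4443 normalized counts at 500 μg/L and 4833 at 5 μg/L, both between the vehicle control at 4434 and the blank control at 5501. Its log2 ratio was -0.12 (-0.18 to -0.06). The 3 exocrine pancreas miRNAs, miR-216a, miR-216b and miR-217, were also all lower, against 51.3% of all miRNAs. Their log2 ratios ran from -0.33 for miR-216a to -0.10 for miR-217, with none beyond 1.5-fold. The interval of miR-217 just reached no change (-0.213 to 0.003). Their genes are neighbours, so the entries are not independent.

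The neuronal activity list was higher at 500 μg/L throughout. miR-132 and miR-212 are neighbouring genes that are induced by neuronal activity in mammals, and miR-129 is a miRNA of neurons and endocrine cells. All 5 entries were higher, against 48.7% of all miRNAs, with a median log2 ratio of 0.41. They are both arms of miR-129, both arms of miR-132 and its neighbour miR-212, so they are not independent. Of the 5, only miR-132-3p passed 1.5-fold, against 3.85% of all miRNAs, and it did not when 10 was added to both values. miR-132-3p had 2799 normalized counts at 500 μg/L and 1865 at 5 μg/L, against 1347 with vehicle and 1556 in the blank control (log2 ratio 0.59, interval 0.50 to 0.67). miR-212 had 2887 and 2177 at 500 and 5 μg/L, against 2088 and 2212 in the vehicle and blank controls (0.41, 0.33 to 0.49). The 500 μg/L library was the highest of the 4 for both.

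miR-129-5p had 5677 normalized counts at 500 μg/L and 3944 at 5 μg/L, against 3742 in the vehicle and 3647 in the blank control, with a log2 ratio of 0.53 (0.47 to 0.58). The lowest ratio of the list was that of miR-129-3p, at 0.35 (0.22 to 0.47), and the interval of the scarce miR-132-5p reached no change (0.37, -0.07 to 0.82). In the control libraries, 2 of the 5 entries were higher and 3 lower with vehicle, with a median log2 ratio of -0.083. Of all miRNAs, 56% were higher and 44% lower with vehicle. Of the other lists of the nervous system, the neurogenic list had 2 of 3 entries higher, from miR-124 at -0.36 to miR-9-3p at 0.06. Only the lower entry, miR-124, had an interval excluding no change (-0.45 to -0.27). The neuronal list had 4 of 8 higher, from miR-138 at -0.35 to miR-153b at 0.07. Among its higher entries, only miR-153b had an interval excluding no change (0.03 to 0.11). The median of the neuronal list, -0.026, became 0.018 when scaled to the total of the listed values. The myelin-related list had both entries lower, miR-219 at -0.54 and miR-338 at -0.03 (-0.11 to 0.06). Of all miRNAs, 48.7% were higher and 51.3% lower.

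Of the white blood cell list, 4 of 5 entries were lower at 500 μg/L, against 51.3% of all miRNAs, and 2 were lower by more than 1.5-fold, against 5.13%. Of the 4 lower entries, 3 are arms or paralogs of miR-142 and not independent, and only these had an interval excluding no change. miR-142 is made in all blood cell lineages of vertebrates. miR-142b-5p had 188 normalized counts at 500 μg/L and 305 at 5 μg/L, against 671 in the vehicle and 336 in the blank control (log2 ratio -0.70, interval -0.97 to -0.43). miR-142a-3p had 69.7 and 111 at 500 and 5 μg/L, against 194 and 115 in the vehicle and blank controls (-0.67, -1.14 to -0.23). miR-142a-5p was at -0.38 (-0.52 to -0.23). For all 3 entries the 500 μg/L library was the lowest and the vehicle control the highest. miR-223 and miR-150, of myeloid cells and of lymphocytes, had log2 ratios of -0.10 (-0.32 to 0.13) and 0.04 (-0.09 to 0.17), and counting error alone allows either sign.

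The red blood cell miRNAs miR-144 and miR-451 are neighbours but did not share a ratio. miR-144 had 180 normalized counts at 500 μg/L and 188 at 5 μg/L, with a log2 ratio of -0.06 (-0.36 to 0.25), whereas miR-451 was at 0.73 (0.63 to 0.83). The controls split the pair as well. miR-144 had 581 in the vehicle and 256 in the blank control, and miR-451 had 1451 and 1660 in the same order. The blood vessel list had 4 of 5 entries higher, against 48.7% of all miRNAs, from miR-221 at -0.11 to miR-126a-3p at 0.38, and none beyond 1.5-fold. All 4 higher entries are arms or paralogs of miR-126, an endothelial miRNA. The list's name miR-222 matched no entry, while miR-222a and miR-222b, looked up after the values were seen, were at -0.07 (-0.10 to -0.05) and -0.10 (-0.42 to 0.22).

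The hypoxia list held the neighbours miR-462 and miR-731, which are induced under low oxygen in zebrafish, and miR-210. miR-731 had 1521 normalized counts at 500 μg/L and 2443 at 5 μg/L, against 2033 with vehicle and 1639 in the blank control (log2 ratio -0.68, interval -0.78 to -0.59). miR-462 had 10726 and 14431 at 500 and 5 μg/L, against 11815 and 10511 in the vehicle and blank controls (-0.43, -0.46 to -0.39). For both, the 5 μg/L library was the highest of the 4. The arms of miR-210 had ratios of the other sign, 0.19 for miR-210-5p and 0.08 for miR-210-3p. The list thus had 2 entries higher and 2 lower, against 48.7% and 51.3% of all miRNAs.

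The remaining lower miRNAs beyond 1.5-fold have less settled roles. miR-2189 had 256 normalized counts at 500 μg/L and 489 at 5 μg/L, against 472 and 441 in the vehicle and blank controls (log2 ratio -0.93, interval -1.16 to -0.71). miR-729 had 902 and 1392 at 500 and 5 μg/L, against 1400 with vehicle and 1331 in the blank control (-0.62, -0.75 to -0.50). In both cases 3 libraries were close together and the 500 μg/L library lay apart. Scaled to the total of the listed values, miR-729 was at -0.58 and so within 1.5-fold. miR-133b-5p, the minor arm of a muscle hairpin, was at -1.69 from 12 and 44 reads (-2.82 to -0.82), and its 3p arm, with 4276 and 3908 normalized counts at 500 and 5 μg/L, was at 0.13.

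Of the 21 miRNAs beyond 1.5-fold, all 12 lower ones were below both control libraries at 500 μg/L. At 5 μg/L, 6 of these 12 were above both controls, 3 between them and 3 below both. Of the 9 higher ones, 6 were above both controls at 500 μg/L and 3 between them, while 6 were below both controls at 5 μg/L. Over all 234 miRNAs, 89 were below and 94 above both controls at 500 μg/L, and 80 were below and 79 above both at 5 μg/L. The 21 miRNAs were selected by the ratio of the BDE47 libraries, which favours an outlying level in one of them. Their positions are therefore not comparable with those of all miRNAs and are a description only. The 5 μg/L value lay between the vehicle and 500 μg/L values for 8 of the 21 miRNAs (38.1%) and for 123 of all 234 (52.6%). For the same reason, these shares are not comparable with each other. Scaled to the total of the listed values, the share over all miRNAs was 46.6%. The 8 were 3 of the 9 higher ones (miR-735, miR-2190 and miR-132-3p) and 5 of the 12 lower ones.

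The 9 entries for miRNAs that the study names as altered by BDE47 were chosen on these libraries, so their ratios are not independent evidence. The study lists miR-735 as upregulated and the others as downregulated, miR-146a only at the low concentration. Set against 5 μg/L, miR-735 and miR-146a were higher at 500 μg/L and the other 7 lower, among them miR-144, whose interval reached no change. Beyond 1.5-fold among the lower ones were miR-459-5p, miR-142b-5p and miR-142a-3p. miR-219, a miRNA of myelinating cells, had 2143 normalized counts at 500 μg/L and 3111 at 5 μg/L, against 7323 with vehicle and 3408 in the blank control, and a log2 ratio of -0.54 (-0.62 to -0.46). miR-190a was at -0.47 (-0.72 to -0.24) and miR-301b at -0.37 (-0.53 to -0.22).

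Other tissue lists differed little. Of the epithelium and skin list, 8 of 10 entries were higher, against 48.7% of all miRNAs. The median log2 ratio was 0.15, from miR-205 at -0.09 to miR-203b-3p at 0.34. The higher entries were both arms of miR-203b and the miR-200, miR-141 and miR-429 entries. The latter come from neighbouring genes, so these entries are not independent. miR-203b-3p, of the skin, had 98676 normalized counts at 500 μg/L and 78028 at 5 μg/L. In the skeletal and heart muscle list 6 of 8 entries were higher, against 48.7% of all miRNAs, with a median of 0.076. Its entries ran from miR-133b-5p to miR-206 at 0.49 (0.42 to 0.57). Of the 8, 1 was lower by more than 1.5-fold, against 5.13% of all miRNAs. An interval excluding no change was found for 5 of the 8. Several are arms or paralogs of miR-133, some of whose genes neighbour miR-206, so these entries are not independent either. miR-206, a miRNA of skeletal muscle, had 3634 and 2582 normalized counts at 500 and 5 μg/L, but 2416 and 3438 in the vehicle and blank controls, so its spread between the controls was as wide. The smooth muscle, eye and skeletal lists had medians of 0.16, 0.17 and 0.077. Their highest entries were miR-145 at 0.28, miR-204 at 0.25 and miR-214 at 0.30, and their lowest were miR-143 at 0.04, miR-184 at 0.08 and miR-140-5p at -0.03. The sensory cell cluster, which serves photoreceptors and hair cells, ran from miR-96 at -0.24 to miR-182-5p at 0.05, and the endocrine list from miR-7b at -0.20 to miR-375 at -0.01. The miR-34 list ran from miR-34b at -0.38 to miR-34a at 0.04, and the miR-430 list from miR-430a at -0.15 to miR-430c at 0.11. No entry of the miR-34 or miR-430 list had an interval excluding no change. The miR-101 and 190 list ran from miR-190a at -0.47 to miR-101b at 0.04.

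**Figure D3:**
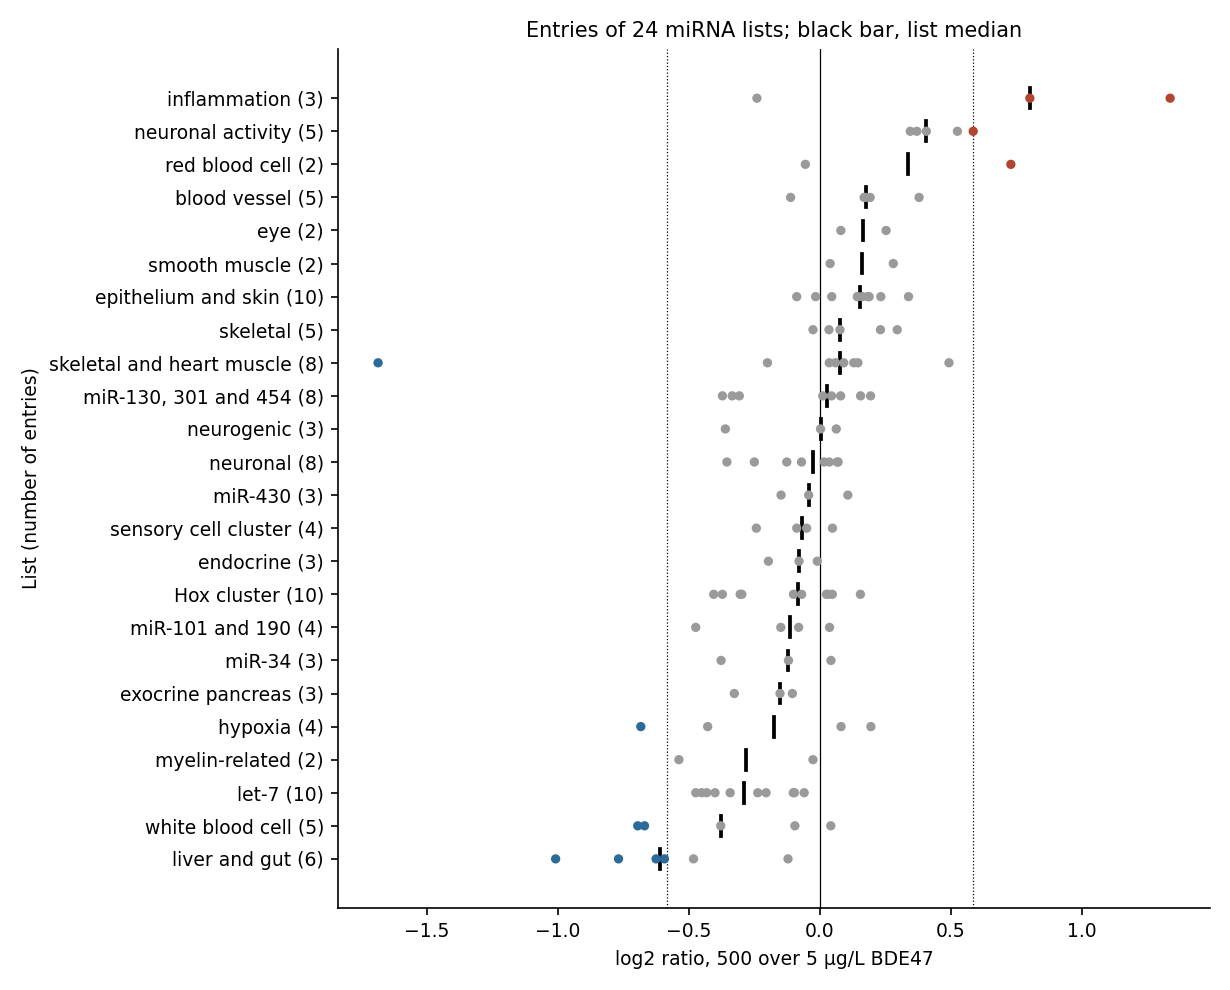
Log2 ratio of 500 over 5 μg/L BDE47 (horizontal axis) for the entries of 24 miRNA lists, 1 point per entry and 1 row per list, with the number of entries in parentheses and a black bar at the list median. Red and blue points lie beyond 1.5-fold (dotted lines), and the liver and gut list is lowest with a median of -0.61 while the inflammation list is highest with 0.80.

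The let-7 family, which times developmental transitions, was lower at 500 μg/L in all 10 of its entries, against 51.3% of all miRNAs. The median log2 ratio was -0.29, from let-7j at -0.47 (-0.64 to -0.31) to let-7c at -0.06, and none passed 1.5-fold. For 9 of the 10 entries the interval excluded no change. let-7i, for example, had 5235 normalized counts at 500 μg/L and 7062 at 5 μg/L, against 6857 and 6482 in the vehicle and blank controls. let-7d had 4006 and 5477 at 500 and 5 μg/L, against 6863 with vehicle and 4145 in the blank control. In the controls, 9 of the 10 entries were higher with vehicle, with a median log2 ratio of 0.27, against 56% of all miRNAs higher there. The let-7 entries are so similar in sequence that the mapping could divide their reads, and they are not independent of each other.

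The miR-130, miR-301 and miR-454 genes lie together at several places in the genome, and miR-301 entries differed in sign from the others. All 3 miR-301 entries were lower at 500 μg/L, against 51.3% of all miRNAs. Their log2 ratios were -0.31 for miR-301a (-0.34 to -0.27), -0.37 for miR-301b and -0.33 for miR-301c (-0.38 to -0.29). All 3 miR-130 entries were higher, against 48.7% of all miRNAs, from 0.04 for miR-130a to 0.19 for miR-130b. miR-454b was at 0.16, while miR-454a at 0.01 (-0.03 to 0.05) reached no change. miR-130c has gene copies at more than 1 of these places, and its single value stands for all of them. miR-301a had 13683 normalized counts at 500 μg/L and 16930 at 5 μg/L, against 25721 in the vehicle and 20216 in the blank control. Its neighbour miR-130a had 15207 and 14745 at 500 and 5 μg/L, against 13025 and 14961 in the vehicle and blank controls. The controls separated these names too, since all 3 miR-301 entries were higher with vehicle (median 0.59) and all 3 miR-130 entries lower (median -0.20). Of all miRNAs, 56% were higher and 44% lower with vehicle. Since these genes are neighbours and the entries of a name are alike in sequence, the entries are not independent of each other.

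Across the genome, genes of the 199 compared names matched in RefSeq formed 52 groups of neighbours. In such a group each gene lay within 10000 bases of the next. In 22 of these groups every entry had the same sign, and in 30 both signs occurred. Several names have more than 1 gene copy, and their reads cannot be assigned to a copy. The value of such a name can enter more than 1 group, so the groups are not independent. Signs were counted whether or not an interval excluded no change.

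**Figure D4:**
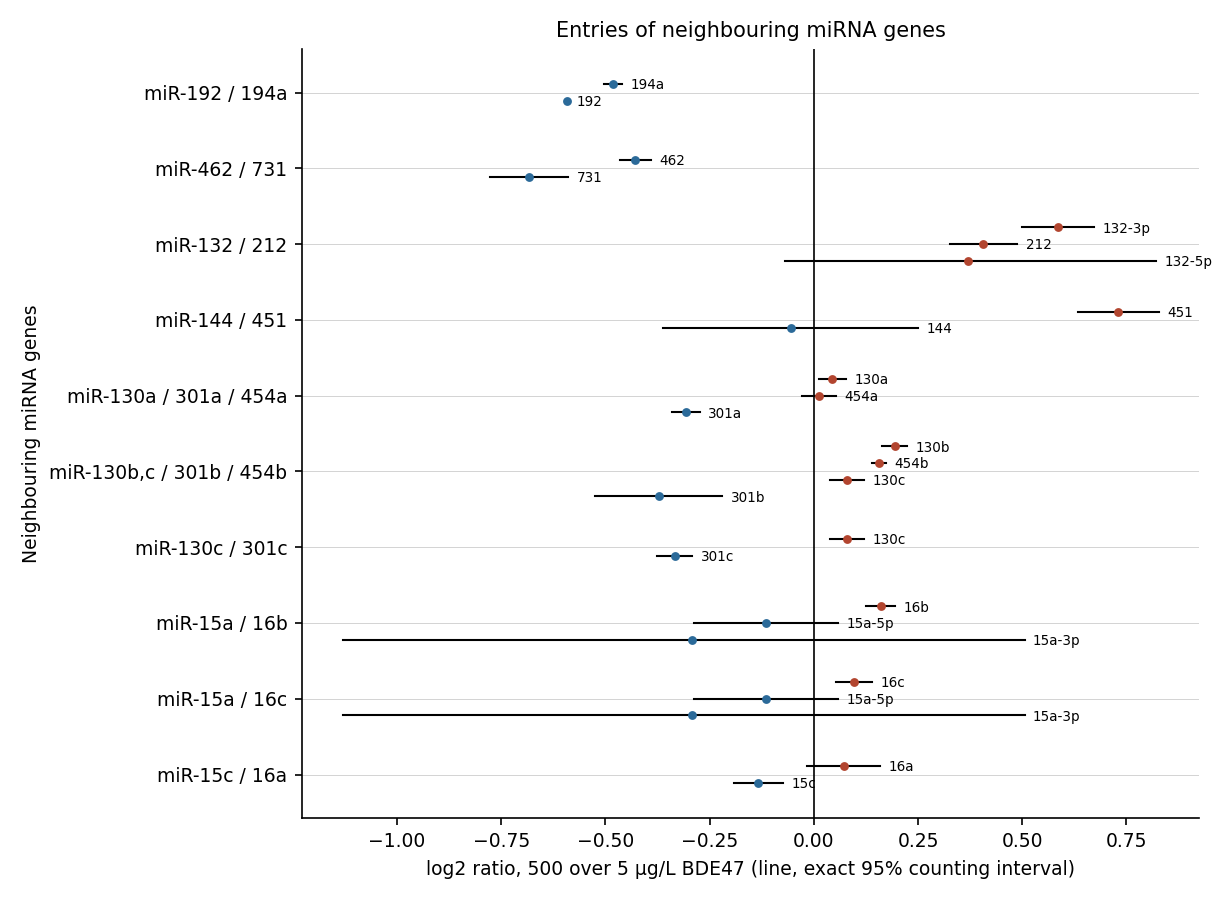
Log2 ratio of 500 over 5 μg/L BDE47 (horizontal axis) for entries of neighbouring miRNA genes, 1 row per group of neighbours. Points are entries (red higher, blue lower at 500 μg/L) and lines are exact 95% counting intervals, with miR-192 and miR-194a both below 0 while miR-301 entries lie below and miR-130 entries above 0.

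Both arms of the hairpin were compared for 32 hairpins. The arms had ratios of the same sign in 21 hairpins and of opposite sign in 11, and the median absolute difference between the arms was 0.18 on the log2 scale. These signs were counted without regard to the counting intervals. Both groups hold arms whose interval reached no change, such as miR-132-5p (-0.07 to 0.82) in the first and miR-140-5p (-0.10 to 0.05) in the second. The counts are therefore not counts of hairpins with settled signs. The rank correlation of the arms was 0.42 across the 32 hairpins, whose points all come from the same 2 libraries. miR-2188 showed a wide split. miR-2188-5p had 4951 normalized counts at 500 μg/L and 4086 at 5 μg/L (log2 ratio 0.28, interval 0.22 to 0.34), while miR-2188-3p had 559 and 840 at 500 and 5 μg/L (-0.59, -0.75 to -0.43). The ratio of miR-2188-3p came within 1.5-fold when 10 was added to both values and when the libraries were rescaled to their totals.

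The abundant miR-181a split as well. miR-181a-5p had 1875808 normalized counts at 500 μg/L and 1670253 at 5 μg/L, against 1417534 in the vehicle and 1656798 in the blank control. It made up 19.1% and 16.5% of the listed reads at 500 and 5 μg/L (log2 ratio 0.17). miR-181a-3p had 18357 and 25331 at 500 and 5 μg/L, against 20016 and 25195 in the vehicle and blank controls (-0.46, -0.49 to -0.44). The 5 most abundant miRNAs were miR-192, miR-181a-5p, miR-182-5p, miR-10b and miR-10c, the last 3 with log2 ratios of 0.05, 0.03 and -0.10. In all, 9 of the 10 most abundant miRNAs were common to both libraries.

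The miRNAs that separated the BDE47 libraries were compared with those that separated the controls. The log2 ratio of 500 over 5 μg/L and that of vehicle over blank control had a rank correlation of -0.30 and a Pearson correlation of -0.27 across 234 miRNAs. The ratios share no library, but they share the authors' scaling, and miRNAs of 1 family or cluster are not independent points. miR-142b-5p, miR-219 and miR-190a were lower at 500 μg/L and higher with vehicle, while miR-146a, miR-146b and miR-31 were higher in both. For the liver and gut entries, the log2 ratios of vehicle over blank control were 0.16 for miR-192, -0.16 for miR-194a, -0.08 for miR-194b, 0.60 for miR-459-5p, 0.26 for miR-459-3p and -0.31 for miR-122. For miR-122 this was wider than its ratio between the BDE47 libraries, and for the other entries it was narrower.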

How the data were processed

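The authors prepared size-selected small RNA libraries, removed adaptors and reads of low quality or unfit length, mapped the rest to zebrafish miRNAs of miRBase v21 and deposited a signal, namely reads divided by 1 size factor per library. All values (100%) were whole multiples of 1 number per library within 0.05 of a read. Each such number matched a scaling by the median of ratios, which assumes that most miRNAs are unchanged. How reads that fit several miRNAs were counted is not given in the sources used here.

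Log2 ratios were computed after adding 1, which understates low miRNAs, over 234 of 245 miRNAs. The 11 left out held 20 reads in each BDE47 library. Depth was 9295259 and 10357704 listed reads at 500 and 5 μg/L. The members, the 24 lists and the naming rule were chosen with earlier results of these data known. Named were miRNAs beyond 1.5-fold with an interval excluding no change, those the study names, the 5 most abundant, the extremes of each list, and arms or neighbours of the first kind. Outside this rule, and chosen after their values were seen, were miR-202-5p, miR-2185-3p, miR-223, miR-222a, miR-222b, miR-129-5p, miR-181a-3p, miR-210-3p, let-7d, let-7i, and the miR-130, miR-301 and miR-454 entries that were neither an extreme of their list nor named by the study. Of 202 names without arm, 199 matched RefSeq (GRCz12tu), used only for names and neighbours. Sequences were not used here, so no groups by seed were formed. The alternatives were pseudocounts of 0.1 and 10, filters, scalings and the fold threshold. The calculations were tested on simulated data. The tools were scipy 1.17.1, pandas 2.3.3 and numpy 2.4.6 under Python 3.11.15, with matplotlib 3.10.9 for plots.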

Additional observations from a re-analysis of the deposited data

How the results depend on the processing

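At a fold threshold of 1.5 in place of 2, the count went to 21 miRNAs, since a lower threshold passes more, and without the filter it went to 7 beyond 2-fold, because miR-2186, miR-3906 and miR-461, each with at most 4 reads in either library, entered. With each library scaled to the total of its listed values, the median over the 234 miRNAs shifted by 0.044 on the log2 scale. The split beyond 2-fold was then 3 higher and 1 lower, beside 2 and 2, and that beyond 1.5-fold 9 higher and 8 lower, beside 9 and 12. miR-192, miR-194b, miR-729 and miR-2188-3p came within 1.5-fold there. The other settings left the counts within 1.5 times (3 or 4 beyond 2-fold). Of 161 alternative values for named miRNAs, 150 differed by less than the counting error, 11 by more without a change of sign, and 0 changed sign. Among the list medians, 2 changed sign, the neuronal list and the miR-430 list (0.0017 from -0.043), both with total scaling. No paired analysis was possible because each condition had 1 library, and for the same reason no library could be left out.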

Other observations

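These families were chosen after their values were seen. miR-15a and miR-15c genes neighbour miR-16 genes, whereas miR-15b neighbours miR-457a. All 4 miR-15 entries were lower at 500 than at 5 μg/L BDE47, against 51.3% of all miRNAs. Their log2 ratios ran from -0.29 for miR-15a-3p to -0.11 for miR-15a-5p. All 3 miR-16 entries were higher, against 48.7% of all miRNAs, from 0.07 for miR-16a to 0.16 for miR-16b. Arms, paralogs and neighbours among the miR-15 and miR-16 entries are not independent. These miRNAs act on cell cycle genes in mammals. The differences are small, and the counting intervals of both miR-15a arms and of miR-16a reached no change.

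All 4 miR-196 entries, from the Hox clusters, were lower, against 51.3% of all miRNAs, with log2 ratios between -0.41 and -0.30. All 4 were higher in the vehicle than in the blank control (median 0.64), against 56% of all miRNAs. The whole Hox cluster list, which also holds miR-10, ran from miR-196b at -0.41 to miR-10a-3p at 0.15. Of its 10 entries, 4 were higher at 500 μg/L and 6 lower (median -0.085), against 48.7% and 51.3% of all miRNAs. Its miR-10 entries split into 4 higher and 2 lower. All 4 miR-126 entries, from the endothelium, were higher at 500 μg/L, between 0.17 and 0.38, against 48.7% of all miRNAs. All 4 were also higher with vehicle (median 0.36), against 56% of all miRNAs. The entries of either family are paralogs or arms and not independent of each other. miR-92b was among the abundant miRNAs that differed most below 1.5-fold, with 62963 normalized counts at 500 μg/L and 92306 at 5 μg/L, against 87182 with vehicle and 80800 in the blank control (log2 ratio -0.55, interval -0.57 to -0.54).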
